A study of Homo sapiens with 8 samples.

Results

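The TP63 locus was taken as the 1.1 Mb window of chromosome 3 at 188600000 to 189700000 (hg19), which holds TP63, given there as 189.35 to 189.62 Mb, and the neighbouring TPRG1 gene on its upstream side. Members were the listed p63 regions whose midpoint fell in that window. CAL27 had 13 such regions of 13829 in its list, and SCC13 had 5 of 5886. All 5 SCC13 regions had the same start and end as a CAL27 region, so the locus held 13 different regions in all. Binding of p63 had been profiled by chromatin immunoprecipitation and sequencing (ChIP-seq), in which DNA bound by a protein is pulled down with an antibody and sequenced, in CAL27 and SCC13, which are established human squamous cell carcinoma lines. Each of the 2 lines had 2 p63 ChIP samples and 2 samples titled none, all labelled wild type (WT) and without treatment. CAL27 was grown in DMEM F:12 medium with serum, and SCC13 in Keratinocyte-SFM, a serum-free medium, with bovine pituitary extract, EGF and calcium. Line and medium therefore cannot be told apart. The deposited data were 1 list of regions for each line, named for both of its p63 samples, with chromosome, start and end and nothing else.

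TP63 encodes p63, a transcription factor of the p53 family and the same protein that was immunoprecipitated here. The gene is read from an upstream promoter, which gives TA isoforms with an amino-terminal transactivation domain, and from a promoter inside the gene, which gives ΔN isoforms without it. The ΔN form predominates in basal keratinocytes and in squamous carcinomas, where p63 maintains the squamous lineage and binds regulatory elements of its own gene. TPRG1 stands for tumour protein p63 regulated 1, and its molecular function is poorly known. In the RefSeq order of protein-coding genes, LPP, which encodes a LIM-domain protein of focal adhesions, comes first, followed by TPRG1, TP63 and P3H2, which encodes a collagen prolyl hydroxylase. The same annotation places 1 microRNA gene, MIR944, inside TP63, and the long non-coding RNA genes TPRG1-AS2 and LOC107986167 inside TPRG1. That annotation is of another build (GRCh38.p14), so only the order of genes was taken from it, and no region was assigned to an exon, an intron or a promoter. The boundaries of TPRG1 in hg19 were not used here.

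The start of TP63 is shown because no listed region lay near the start of the gene as given above. The set of RefSeq promoter sequences used here held 1 for TP63 and none for TPRG1. That one lies in the upstream part of the gene, by its place relative to MIR944 given below. Which of the promoters it belongs to was not determined further, and the other is not shown. The 250 bases before that TP63 start, on the plus strand of GRCh38.p14 at chr3:189631139-189631388, are printed with capitals at each core of the p53 family motif. A core is CNNG with A or T at both middle bases, which reads as a core on either strand. The full motif is taken here as no more than 2 cores with 6 bases between them, so that 1 core can belong to 2 overlapping motifs.
TP63 promoter: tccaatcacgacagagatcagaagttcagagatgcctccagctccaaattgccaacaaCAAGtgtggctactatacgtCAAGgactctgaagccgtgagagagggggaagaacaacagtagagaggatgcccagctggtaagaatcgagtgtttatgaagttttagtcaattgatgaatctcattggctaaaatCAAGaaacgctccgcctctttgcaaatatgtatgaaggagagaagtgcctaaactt
It held 3 cores, at bases 59, 79 and 195 counted from 1 at the 5′ end, and 0 full motifs. Of 35116 RefSeq promoter sequences cut to the same length, 58.1% held at least 3 cores and 4.02% held the full motif. Whether this start is the one that begins the span given above was not determined. The letters describe the sequence, and the listed regions themselves could not be read because no hg19 genome was at hand. The mature product of MIR944, the microRNA gene nested in TP63, lies on the plus strand at chr3:189829975-189829996 (GRCh38.p14) and is printed with its seed, bases 2 to 8, in capitals.
hsa-miR-944: aAAUUAUUguacaucggaugag
Both printed sequences are of the same build, and MIR944 begins at 189829975, downstream of the promoter sequence, which ends at 189631388. With MIR944 inside a gene of 270 kb, this places the printed start in the upstream part of TP63. Positions in GRCh38.p14 and those of the regions, in hg19, cannot be set side by side.

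Within the TP63 span, CAL27 listed 5 regions and SCC13 listed 2, and both SCC13 regions were in the CAL27 list. The spread of these regions along the span was described and not tested. In CAL27, 3 of the 5 lay within 14.0 kb of each other, between 71.5% and 76.4% of the way along the span, and the 2 SCC13 regions belonged to that group.

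The widest region of the locus was one of this group and was listed in both lines. It was 1355 bp wide, at chr3:189551183-189552537, with its midpoint 202 kb from the start of the TP63 span. It was wider than 90.5% of all CAL27 regions and wider than 87.4% of all SCC13 regions. Its upstream neighbour, also listed in both lines, was 1043 bp wide at chr3:189542451-189543493, 7.69 kb away. The last region of the group, 493 bp wide at chr3:189555964-189556456, began 3.43 kb past the widest one and was listed in CAL27 only. It was among the narrow regions of the CAL27 list, of which 8.94% were narrower still. Both lines thus shared the wide pair, and CAL27 alone added a narrow neighbour at its downstream side.

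The remaining regions of the TP63 span stood alone and were listed in CAL27 only. One was 652 bp wide, at chr3:189407254-189407905, with its midpoint 57.6 kb from the start of the span, or 21.3% of the way along. This was the listed region nearest to that start. On the upstream side the nearest was 276 kb away. The other was 452 bp wide, at chr3:189618401-189618852, the narrowest region of the locus, with 5.37% of CAL27 regions narrower. Its midpoint lay 1.37 kb before the end of the span, which is given only to 10 kb, so it cannot be placed inside or outside the gene. With the end of the span moved 5 kb earlier, a setting chosen after the data were seen, the counts were 4 regions in CAL27 and 2 in SCC13.

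**Figure D1:**
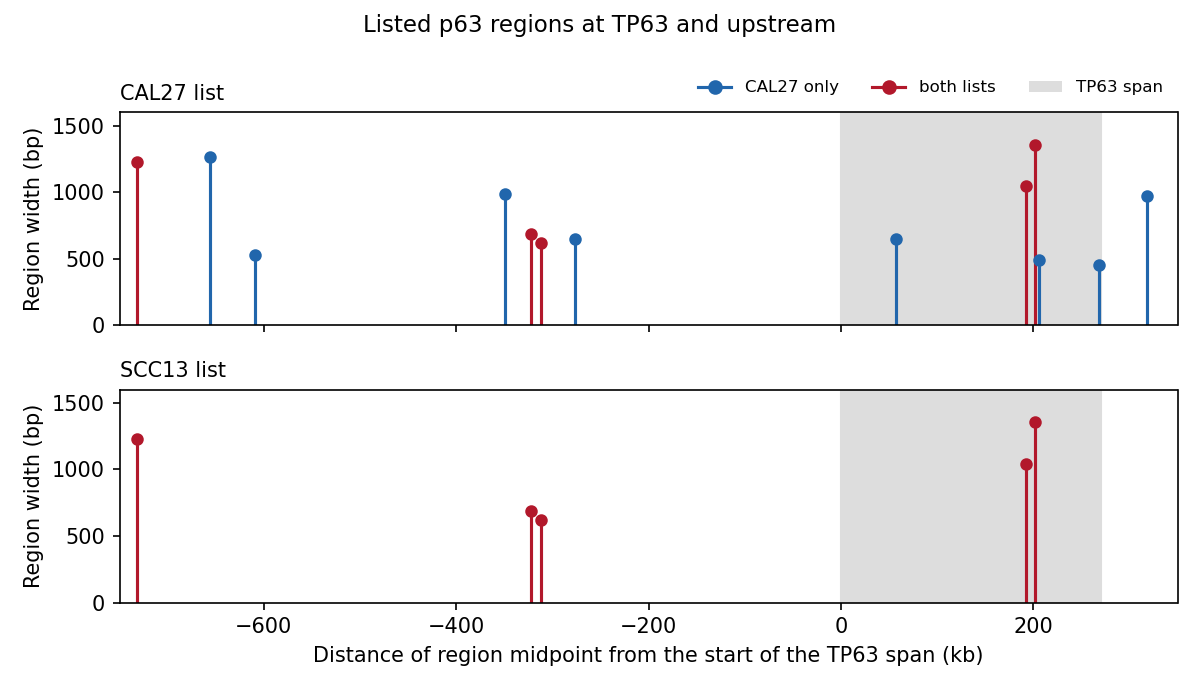
Each stem is a listed p63 region, placed by the distance of its midpoint from the start of the TP63 span (kb) and as tall as its width (bp), with CAL27 above SCC13. The 5 regions of the SCC13 list all stand at the same places in the CAL27 list, which has 8 more, and the grey TP63 span holds 5 regions in CAL27 and 2 in SCC13.

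Upstream of TP63, over 750 kb on the side that holds TPRG1, CAL27 listed 7 regions and SCC13 listed 3. Again each SCC13 region was a CAL27 region. They fell into an outer set between 609 and 732 kb from TP63 and an inner set between 276 and 349 kb from it.

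The outer set had 3 regions, of which 1 was listed in both lines. That one was 1229 bp wide at chr3:188617677-188618905, 732 kb from the start of the TP63 span, and it was the first member of the locus in each list. CAL27 alone listed a region of 1267 bp at chr3:188693491-188694757 and one of 526 bp at chr3:188740407-188740932. The 1267 bp region was the second widest of the 13, with 87.5% of CAL27 regions narrower. Of the 4 members of at least 1000 bp in CAL27, it was the only one that SCC13 did not list. Over all CAL27 regions, of any width, 32.2% were also listed in SCC13. The share among CAL27 regions of at least 1000 bp alone is not given here. Shared regions were wider over the whole lists, with a median of 934 bp against 723 bp for CAL27-only regions, so 32.2% is no like comparison for wide members.

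The inner set had 4 regions in CAL27 and 2 in SCC13. The 2 in both lists were 688 bp wide at chr3:189027321-189028008 and 620 bp wide at chr3:189038151-189038770, 10.1 kb apart. Of all CAL27 regions, 36.0% and 25.9% were narrower than these, so both were below the median width of that list. CAL27 alone listed a region on each side of the pair. The region before it was 984 bp wide at chr3:189000062-189001045, and the region after it was 649 bp wide at chr3:189073395-189074043. Past the TP63 span the window held 1 more region, 972 bp wide at chr3:189668053-189669024, in CAL27 only.

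Long stretches of the locus had no listed region. The widest gap between neighbours in CAL27 was 333 kb, at chr3:189074044-189407253, and it took in the start of the TP63 span. Of all gaps between neighbouring CAL27 regions, 84.2% were shorter. Next came a gap of 259 kb within the upstream side, at chr3:188740933-189000061, with 79.2% of CAL27 gaps shorter. The widest SCC13 gap was 504 kb, at chr3:189038771-189542450, between its upstream pair and its TP63 pair, with 70.6% of SCC13 gaps shorter. In that stretch CAL27 listed 2 regions. The median gap in the locus was 47.4 kb in CAL27 (12 gaps) and 209 kb in SCC13 (4 gaps), beside 81.8 kb and 230 kb over the whole lists. The 4 SCC13 gaps were 7.69, 10.1, 408 and 504 kb, so none was near their median.

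Members with close neighbours were counted by joining regions whose midpoints lay within 12.5 kb. CAL27 had 2 such groups, the group of 3 in TP63 and the upstream pair, which together held 5 of its 13 members. Over the whole CAL27 list, 25.2% of regions had such a neighbour and 7.27% were in a group of 3 or more. SCC13 had 2 groups, both of them pairs, holding 4 of its 5 members, beside 12.3% of its whole list. Paired regions count together, so these shares rest on 2 groups in each line. Of 147 other stretches of the same length with 5 SCC13 regions, 97 had none with a close neighbour, 45 had 2, 4 had 3 and 1 had 4. This last count was made after the values were seen and is a description, with no test.

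CAL27 had 248 groups of exactly 3 regions over its whole list. In 48 of them, as in the TP63 group, 2 of the 3 regions were also listed in SCC13. All 3 were listed in 9 groups, 1 in 107 and none in 84.

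**Figure D2:**
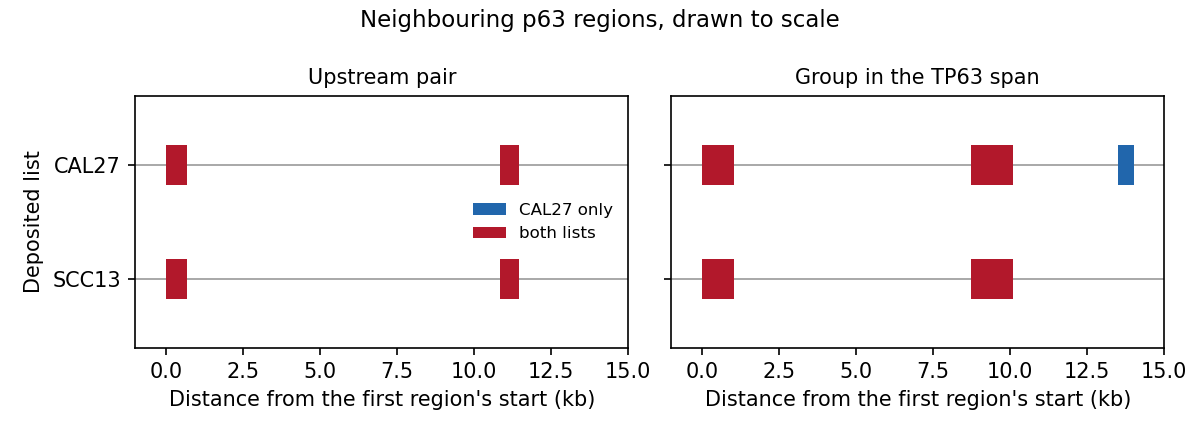
Bars are the listed regions of the upstream pair and of the group in the TP63 span, drawn to scale against the distance from the start of the first region (kb), with CAL27 above SCC13. The upstream pair is 10.1 kb apart and the TP63 pair 7.69 kb apart in both lists, and CAL27 alone has a further region 3.43 kb past the TP63 pair.

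Sharing between the lines was counted against that over the whole lists. Of the 13 CAL27 members, 5 were also listed in SCC13, or 38.5% (95% exact binomial interval 13.9 to 68.4, counting error only), beside 32.2% of all CAL27 regions. Of the 5 SCC13 members, 5 were also listed in CAL27, or 100% (exact interval 47.8 to 100), beside 75.6% of all SCC13 regions. Both intervals hold the value of the whole list, but they are too wide to compare the locus with it. They also treat regions as independent, though 4 of the 5 SCC13 members lay in pairs. Of the 147 other stretches with 5 SCC13 regions, 48 also had all of them in the CAL27 list. Of 61 other stretches with 13 CAL27 regions, the median held 5 SCC13 regions, with a range of 1 to 10. Identical positions were no trait of the locus, as all 4448 regions shared over the whole lists had the same start and end in both. No width or place could therefore differ between lines within a shared region.

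No difference between the lines in the share of the list that fell in the locus was detectable at these counts. The locus took 0.0940% of the CAL27 list and 0.0849% of the SCC13 list, so the share in CAL27 was 1.11 times that in SCC13 (95% interval 0.395 to 3.10). A two-sided Fisher's exact test over all 1568 stretches of this length with at least 5 regions, gave an adjusted p of 1.00 for the locus. None of the 1568 passed (0%), and 14 had an unadjusted p under 0.05. The interval covers both a smaller and a larger share in CAL27, so the counts do not show that the shares were alike. For the TP63 span alone the ratio was 1.06 (95% interval 0.207 to 5.48; exact test, adjusted p = 1.00). The test compares 2 lists, with regions treated as independent and no spread between replicates. The lists also overlap, as 4448 of the 5886 SCC13 regions, among them all 5 members, are CAL27 regions too. Each of these counts on both sides, which the p-values and the intervals of the ratios do not allow for.

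Both lists were denser here than on average. The locus held 11.8 CAL27 regions and 4.55 SCC13 regions per Mb, beside 4.56 and 1.94 over the whole lists. Among 2763 other stretches of 1.1 Mb, the median held 4 CAL27 regions and 2 SCC13 regions. In CAL27, 91.7% of these stretches held fewer than 13 regions and 169 held more, up to 29. In SCC13, 86.2% held fewer than 5 and 233 held more, up to 13. The TP63 span by itself, with 5 CAL27 regions in 270 kb, stood above 94.7% of stretches of that length, of which 325 held more. With 2 SCC13 regions it stood above 88.1% of them, and 443 held more. The upstream side, with 7 CAL27 and 3 SCC13 regions, stood above 82.2% and 78.8% of stretches of 750 kb. These ranks describe the locus and are no test, and the stretches include gene-poor and unmappable sequence.

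**Figure D3:**
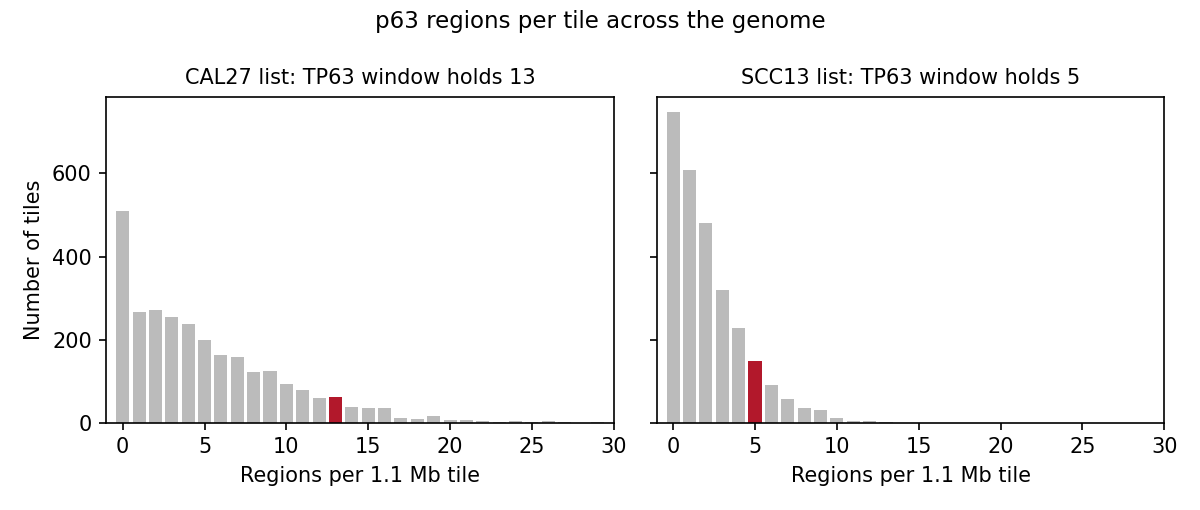
Bars give how many 1.1 Mb stretches of the genome held each number of listed regions (horizontal axis, regions per stretch), with CAL27 on the left and SCC13 on the right and the bar that includes the TP63 locus in red. The locus, with 13 and 5 regions, lies in the upper part of both distributions, and 169 stretches in CAL27 and 233 in SCC13 held more.

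The stretches next to the locus also held regions of both lists, to be set beside the medians of 4 in CAL27 and 2 in SCC13 over other stretches. The 1.1 Mb upstream of it, at 187.5 to 188.6 Mb, had 11 CAL27 regions and 2 SCC13 regions, of which 1 was shared. The 1.1 Mb downstream, at 189.7 to 190.8 Mb, had 11 and 7, with 6 shared. At the edges of the window, the first member lay 18.3 kb inside in each list. The last region before the window was 121 kb outside in CAL27, with a width of 869 bp, and 498 kb outside in SCC13, with a width of 776 bp. The last member lay 31.5 kb inside in CAL27 and 148 kb inside in SCC13. The next region past the window, 55.9 kb outside, was 1199 bp wide and listed in both lines.

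Width was the only measure per region. For a shared region it is the same in both lists, so it is not a separate measure of each line. How the positions of shared regions were set is not given, and whether this affected their widths was not tested. Members listed in both lines were 620, 688, 1043, 1229 and 1355 bp wide. The 8 members listed in CAL27 only were 452, 493, 526, 649, 652, 972, 984 and 1267 bp wide. The widths of the shared and the CAL27-only members overlapped, with medians of 1043 and 650.5 bp. Over the whole lists the medians were 934 bp for shared and 723 bp for CAL27-only regions. No test was made within the locus, because neighbouring regions are not replicates. Members of at least 1000 bp made up 4 of 13 in CAL27, beside 28.1% of its whole list, and 3 of 5 in SCC13, beside 34.8%. The median width was 688 bp for the 13 CAL27 members and 1043 bp for the 5 SCC13 members, beside 791 and 862 bp over the whole lists. Listed regions covered 10930 bp of the window in CAL27, or 0.994% of it, and 4935 bp in SCC13, or 0.449%, beside 0.396% and 0.180% over the genome. The lists hold no signal, and width does not stand for the strength of binding.

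**Figure D4:**
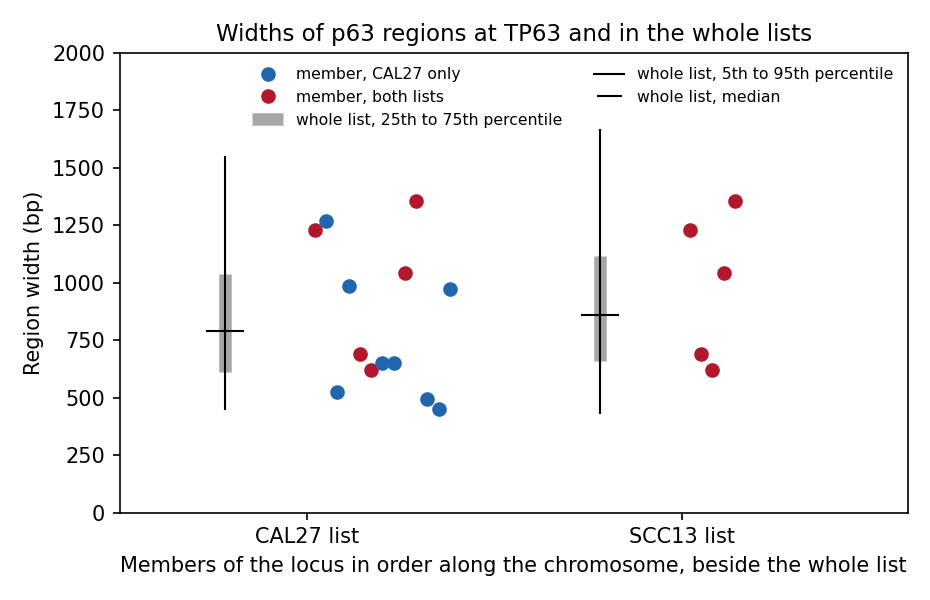
Points are the widths (bp) of the members of the locus, in their order along the chromosome, beside the median, the 25th to 75th percentile (thick bar) and the 5th to 95th percentile (thin line) of the whole list, with CAL27 on the left and SCC13 on the right. The 13 CAL27 members run from 452 to 1355 bp and the 5 SCC13 members from 620 to 1355 bp, all within the 5th to 95th percentile of their list.

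The 8 CAL27-only members lay between 3.43 and 135 kb from the nearest SCC13 region, with a median of 70.2 kb. Over all 9381 CAL27-only regions the median was 109 kb. The nearest of the 8 was the narrow region beside the TP63 pair, and the farthest was the region nearest to the start of the TP63 span.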

How the data were processed

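Per the labels' protocols, crosslinking used 1% formaldehyde (10 min) and each precipitation 10 ug of antibody to p63. Bowtie2, SAMtools 1.8, MACS2 and the hg19 build are named in the submitters' processing notes, with no role or order. Not given in the sources used here are the threshold for a peak, what the samples titled none were used for, and how replicates were combined. The authors deposited regions as positions only, with no counts, scores or p-values, so sequencing depth is unknown, and an unlisted place is not shown to be unbound. Positions are printed counted from 1.

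The window and the TP63 span, whose ends are given to 10 kb, came from the rule that defines the locus. A region counted as listed in both lines where it overlapped one of the other list by 1 bp or more. The genome was divided into stretches of the window's length, aligned to the window on chromosome 3, up to the last listed region of each chromosome, the end ones shorter. The share of each list per stretch was tested by a two-sided Fisher's exact test, adjusted after Benjamini and Hochberg (threshold 0.05) over stretches with at least 5 regions. For percentages, 95% intervals are exact (Clopper-Pearson); for ratios, they are normal on the log scale. Described singly were regions in both lists, the widest 5 per line, those in the TP63 span, the first and last members and the widest gap, which with the rest came to every member. Locus, members and tests were chosen with earlier results of these data known. The squamous identity of the lines was not checked against markers, since no expression values were used. Motif content of the regions was not analysed here. Calculations used Python 3.11.15, numpy 2.4.6, scipy 1.17.1 and matplotlib 3.10.9.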

Additional observations from a re-analysis of the deposited data

How the results depend on the processing

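No paired analysis was possible because each line has 1 list behind both of its replicates, and leaving out a replicate was likewise not possible. A stricter peak threshold could not be set without scores. With each list cut to regions above its median width, the locus held 6 regions in CAL27 and 3 in SCC13, as fewer regions were kept. With close neighbours counted once, CAL27 had 10 regions in place of 13 and SCC13 had 3 in place of 5. The ratio of shares, 1.11, turned to 0.851 with the window extended by 500 kb on each side (exact test, adjusted p = 1.00). It was 1.06 to 1.54 in the other settings, and no setting passed the threshold. Without shared regions no ratio could be formed, as 8 CAL27-only and 0 SCC13-only regions were left (exact test, adjusted p = 1.00). In CAL27, the percentage of stretches with fewer regions was 94.1% for the extended window, 90.3% without empty stretches and 92.8% on chromosome 3 alone, against 91.7%. In SCC13 it was 96.3%, 83.9% and 89.4%, against 86.2%. At a joining distance of 5 kb, CAL27 had 1 group and SCC13 had 0, in place of 2 each. With each list cut to regions above its median width, 50.0% of the 6 CAL27 members left were also listed in SCC13, against 38.5%. The share over the whole cut lists is not given here. Shared regions were also wider over the whole lists (median 934 bp, against 723 bp for CAL27-only regions).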
